A study of Mus musculus with 12 samples.

Results

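The genes described are 9 that are widely used as readouts or regulators of alternative macrophage activation: Il4ra, Stat6, Retnla, Chil3, Mrc1, Mgl2, Folr2, Fn1 and Tgm2. They were chosen by name, and each has 1 row among the 54532 genes of the table. All 9 had enough counts to be tested, with 14506 genes tested in all. Resident peritoneal macrophages from C57BL/6 mice were kept for 24 h in basic DMEM containing either MOPS or HEPES as buffer. They were then given LPS, the bacterial cell-wall component sensed by Toll-like receptor 4, at 10 ng/ml for 2 h, or left untreated. RNA-seq libraries fall into 4 groups of 3: MOPS with LPS, HEPES with LPS, MOPS and HEPES. The design text pairs pH 6.8 with MOPS and pH 7.4 with HEPES only by the order of the words, so buffer and pH cannot be told apart and each comparison is of a whole medium. The labels name no treatment with interleukin-4 or interleukin-13. They do not say whether replicates came from separate animals or cultures, so the p-values cover the scatter among libraries, which may be technical.

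Alternative activation is the state that macrophages enter when interleukin-4 or interleukin-13 binds the receptor chain encoded by Il4ra. Receptor-bound Janus kinases then phosphorylate STAT6, which enters the nucleus and switches on genes for secreted proteins such as Retnla and Chil3, lectins such as Mrc1 and Mgl2, and the enzyme Tgm2. In the peritoneal cavity, resident macrophages also make large amounts of fibronectin, the product of Fn1, and respond to LPS with a rapid inflammatory program.

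Library totals were 21210474 to 24521749 counts in MOPS with LPS, 22447187 to 23506654 in HEPES with LPS, 20114613 to 24734853 in MOPS and 22433773 to 24669239 in HEPES. Levels are given in CPM (counts scaled for library size and for composition by TMM factors), and changes as log2 fold changes ± standard error. Macrophage markers (Adgre1, Itgam, Csf1r, Cd68, Lyz2 and Cd14, summed) stood at 21502 to 24343 CPM in MOPS with LPS, 33818 to 35482 CPM in HEPES with LPS, 17028 to 17280 CPM in MOPS and 26219 to 27584 CPM in HEPES. Most of that sum is Lyz2, at 13827, 23350, 12599 and 21982 CPM on average in the same order of groups, and most of its difference with LPS is Cd14, at 4816, 6943, 605 and 517 CPM. The markers went in both directions between media: of the 6, 2 were higher and 3 lower in MOPS at rest, and 1 higher and 3 lower under LPS, and Adgre1 was not called in either state (-0.07 ± 0.037 and 0.01 ± 0.037). The sums of the 9 markers of large peritoneal macrophages were 163 to 187, 381 to 432, 168 to 174 and 278 to 286 CPM in the same order of groups. Of these 9, 1 was higher and 6 lower in MOPS at rest, and 1 higher and 5 lower under LPS. Those called higher were Gata6 at rest (0.28 ± 0.058, against -1.47 ± 0.054 under LPS) and Garnl3 under LPS (0.52 ± 0.14). The markers named singly were picked out after their values were seen. Over all tested genes, 24.3% were called higher and 25.4% lower in MOPS at rest, and 26.9% each way under LPS. These shares stand beside every count of called markers here. The 7 B cell markers summed to 118 to 132 CPM in MOPS with LPS, 33.4 to 37.7 CPM in HEPES with LPS, 203 to 212 CPM in MOPS and 102 to 170 CPM in HEPES. The largest part of that sum is Ighm, at 68.0, 13.6, 114 and 52.9 CPM on average in the same order of groups. Of the 7, 4 were higher and 1 lower in MOPS at rest, and 6 higher and 1 lower under LPS. The lower one was Cd22 in both states (-0.83 ± 0.085 and -0.46 ± 0.11). The 10 markers of small peritoneal macrophages and dendritic cells summed to 752 to 843, 1016 to 1121, 575 to 674 and 668 to 802 CPM. The largest part of that sum is Cd74, at 302, 459, 259 and 331 CPM on average. Of the 9 tested, 3 were higher and 2 lower in MOPS at rest, and 3 higher and 4 lower under LPS. Those called higher were Flt3, Zbtb46 and Ccr7 in both states (Ccr7 at 2.79 ± 0.18 and 2.20 ± 0.22). The 6 T and NK cell markers summed to 0.378 CPM at most in either MOPS group and to 0.851 to 1.12 CPM in the HEPES groups. Most of the HEPES sums is Cd4, the only 1 of the 6 with enough counts to be tested. It averaged 0.147 CPM in MOPS with LPS, 0.636 in HEPES with LPS, 0.0749 in MOPS and 0.794 in HEPES. The 9 granulocyte and mast cell markers, of which Ly6g and Prg2 had 0 counts in every library, summed to 10.4 to 25.7 CPM, and the 7 mesothelial, stromal and endothelial markers to 5.84 to 9.61 CPM. The part of these differences in the results below was not tested.

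Retnla and Chil3 are shown with their promoters because, of the members that have an entry in the RefSeq promoter table (GRCm38.p6, the assembly of mm10), they are the ones whose window holds a match to a STAT-type motif. Windows run from 250 bases before the RefSeq gene start to 50 bases from it on. The motifs searched on both strands were TTCNNNNGAA (STAT6 type), TTCNNNGAA (general STAT type), TTGCNNAA (C/EBP type) and TGACGTCA (the cAMP response element). Capitals mark the matches, 5′ to 3′ on the strand of the gene. The Retnla window is chr16:48842359-48842658 on the plus strand, and the Chil3 window is chr3:106167515-106167814 on the minus strand.
Retnla: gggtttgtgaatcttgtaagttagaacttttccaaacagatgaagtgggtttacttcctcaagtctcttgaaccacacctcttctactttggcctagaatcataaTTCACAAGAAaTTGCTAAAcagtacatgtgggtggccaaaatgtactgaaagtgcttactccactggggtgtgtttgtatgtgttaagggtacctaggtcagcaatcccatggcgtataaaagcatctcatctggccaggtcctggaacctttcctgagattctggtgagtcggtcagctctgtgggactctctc
Chil3: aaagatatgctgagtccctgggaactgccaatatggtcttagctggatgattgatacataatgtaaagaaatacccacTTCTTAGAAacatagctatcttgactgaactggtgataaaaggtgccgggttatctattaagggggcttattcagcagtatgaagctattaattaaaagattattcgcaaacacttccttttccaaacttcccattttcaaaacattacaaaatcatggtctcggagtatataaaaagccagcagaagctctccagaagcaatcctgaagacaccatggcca

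In the Retnla window the STAT6-type match TTCACAAGAA lies at -145 to -136 from the RefSeq gene start, and the C/EBP-type match TTGCTAAA at -134 to -127. The STAT6-type motif was present in 6.95% of the 32851 promoter windows of the table and the C/EBP-type motif in 10.8%. Both were present at any distance in 276 windows (0.84%), and within 10 bases of each other in 25 windows (0.0761%). The pair and its distance limit were not part of the planned motif search, so these shares are a description only. The Chil3 window held the general STAT-type match TTCTTAGAA at -172 to -164, a motif found in 8.30% of all windows. The windows of Il4ra, Stat6, Mrc1 and Mgl2 and both windows of Folr2 held none of the motifs. No promoter held the cAMP response element among the 8 windows of 7 members, against 1.79% of all windows. Fn1 and Tgm2 were not analysed here in this respect. A match describes letters in a window and not a bound site.

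The levels of the 9 genes spanned a wide range within one culture. Per kilobase of gene length, Fn1 averaged 1014 ± 77.3 CPM (SD, n = 3) in MOPS with LPS, 1253 ± 51.4 in HEPES with LPS, 393 ± 8.05 in MOPS and 290 ± 12.4 in HEPES, above 99.3% of tested genes in HEPES. Mgl2 was the lowest member in each group, at 0.242 ± 0.169, 0.345 ± 0.124, 0.367 ± 0.0696 and 0.453 ± 0.0994 CPM per kilobase in that order of groups. In HEPES the order from high to low was Fn1, Tgm2, Stat6, Retnla, Il4ra, Mrc1, Chil3, Folr2 and Mgl2, and the library ranges of Stat6 and Retnla overlapped while those of the other neighbours did not. In MOPS the order was the same, with no overlap between neighbours. In HEPES with LPS, Il4ra followed Tgm2, above Retnla and Stat6, whose ranges overlapped, and in MOPS with LPS Stat6 and Il4ra overlapped, above Retnla.

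**Figure D1:**
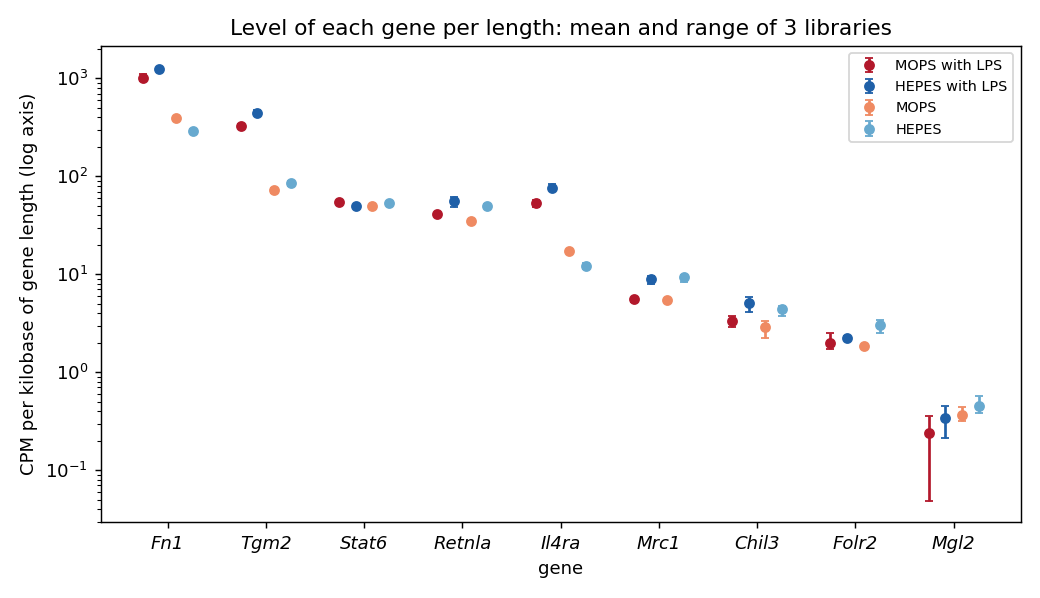
Mean level of each gene per kilobase of gene length (CPM, log axis) in MOPS with LPS, HEPES with LPS, MOPS and HEPES, with bars from the lowest to the highest of 3 libraries. Fn1 lies highest, at 290 to 1253 CPM per kilobase by group mean, and Mgl2 lowest, at 0.242 to 0.453.

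The series title asks about extracellular acidity, and the media were compared at rest and under LPS. At rest, 2 of the 9 genes (Il4ra and Fn1) were higher in MOPS and 5 (Retnla, Chil3, Mrc1, Folr2 and Tgm2) were lower, with a median log2 change of -0.31. Under LPS 1 gene (Stat6) was higher in MOPS and 6 (Il4ra, Retnla, Chil3, Mrc1, Fn1 and Tgm2) were lower, with a median of -0.45. Genes were called at an adjusted p under 0.05 by edgeR's quasi-likelihood test. Of all tested genes, 24.3% were called higher and 25.4% lower in MOPS at rest, and 26.9% higher and 26.9% lower under LPS, where scaling by library totals alone gave 62.4% of calls as higher, against 3904 of 7801 with TMM. The median change over all tested genes was -0.01 at rest and 0.00 under LPS.

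The comparison of LPS with no LPS asked how the same genes responded to the toll-like receptor stimulus in each medium. In MOPS, 5 genes rose with LPS (Il4ra, Stat6, Retnla, Fn1 and Tgm2) and 0 fell, with a median of 0.18, while 34.1% of tested genes were called higher and 34.9% lower. In HEPES, 4 rose (Il4ra, Retnla, Fn1 and Tgm2) and 2 fell (Stat6 and Folr2), with a median of 0.15, while 35.6% of tested genes were called higher and 41.2% lower. Without HEPES replicate 5, or without HEPES with LPS replicate 11, the count in HEPES was 3 higher and 0 lower. Under LPS the TMM factors were 0.842 to 0.863 for MOPS libraries and 0.800 to 0.801 for HEPES libraries, against 1.22 and 1.19 to 1.21 for untreated MOPS and HEPES libraries. Scaling by library totals alone therefore moved the median gene by -0.51 in MOPS and -0.58 in HEPES, and gave 18.0% and 20.6% of calls as higher in MOPS and HEPES, against 49.4% and 46.3%. Small LPS changes below are relative to the TMM scale, whereas library totals moved the comparison of media by 0.02 at rest and 0.09 under LPS.

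**Figure D2:**
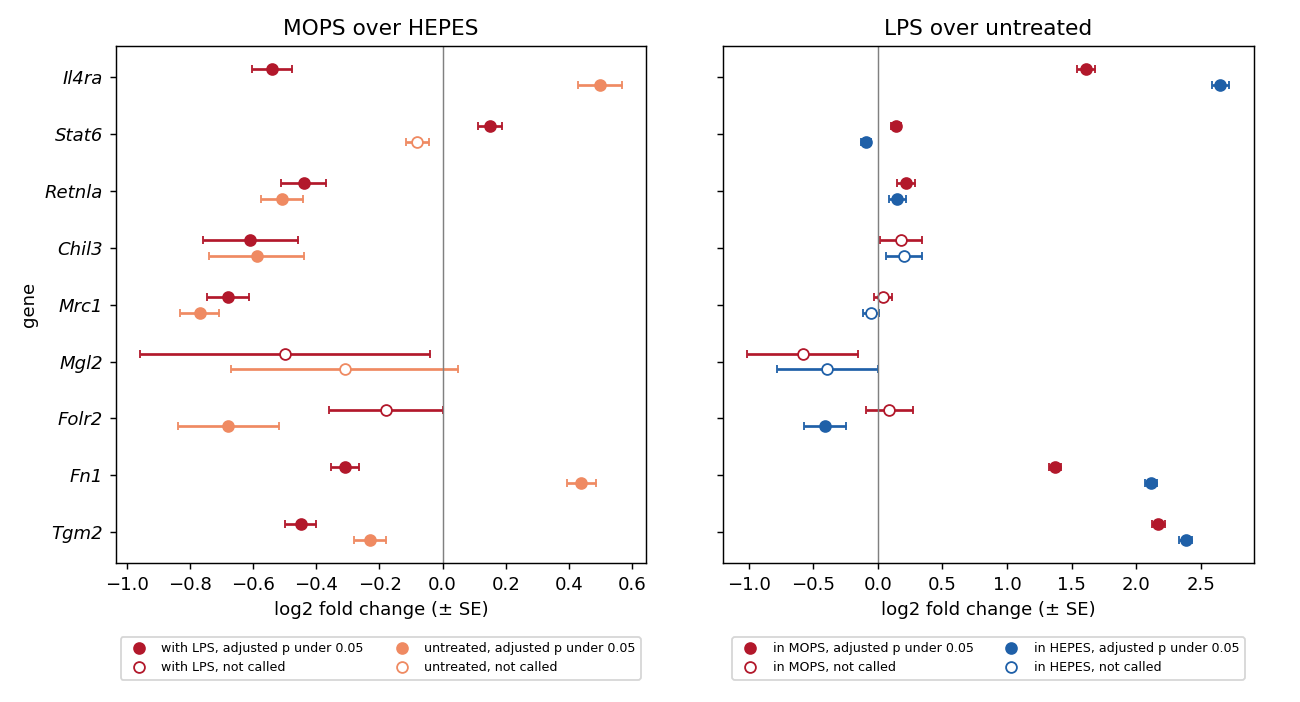
Log2 fold change ± SE of each gene, for MOPS over HEPES with LPS and untreated (left) and for LPS over untreated in MOPS and in HEPES (right), from the fit to 12 libraries; filled points have an adjusted p under 0.05. Il4ra and Fn1 lie on opposite sides of 0 with and without LPS on the left, and with Tgm2 they hold the large LPS changes on the right.

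Il4ra encodes the chain shared by the receptors for interleukin-4 and interleukin-13. It stood at 342, 291 and 320 CPM in LPS-treated MOPS cultures, 498, 434 and 448 CPM in LPS-treated HEPES cultures, 105, 107 and 98.8 CPM in MOPS, and 73.3, 78.1 and 67.9 CPM in HEPES. No pair of groups overlapped: every MOPS library was above every HEPES library at rest, and every MOPS library with LPS was below every HEPES library with LPS. LPS raised Il4ra 3.06-fold in MOPS (log2 change 1.61 ± 0.067, edgeR adjusted p = 4.11e-12) and 6.29-fold in HEPES (2.65 ± 0.069, adjusted p = 5.50e-15). MOPS over HEPES was 0.50 ± 0.069 at rest (adjusted p = 1.88e-05) and -0.54 ± 0.064 under LPS (adjusted p = 3.55e-06). The interaction, which subtracts the LPS change of HEPES cultures from that of MOPS cultures, was -1.04 ± 0.094 (adjusted p = 3.79e-07). In this interaction 1 of the 9 genes was called higher and 3 lower, against 21.9% and 17.6% of tested genes. On library totals 66.4% of all interaction calls were higher, against 55.5% with TMM. The genes most like Il4ra over the 12 libraries, among 8777 compared, were Surf4 (Pearson r = 0.999) and Lrrc59 (r = 0.998), a description only, since the libraries share their groups.

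Stat6 encodes the transcription factor that carries the interleukin-4 signal to the nucleus. Its level was 242, 245 and 242 CPM in LPS-treated MOPS cultures, 221, 211 and 224 CPM in LPS-treated HEPES cultures, 215, 225 and 222 CPM in MOPS, and 235, 233 and 231 CPM in HEPES. The highest group mean was 1.11 times the lowest, the narrowest span of the 9 genes. Under LPS it was higher in MOPS (0.15 ± 0.037, edgeR adjusted p = 9.46e-04), a call lost without HEPES with LPS replicate 11 (adjusted p = 0.0858), and at rest it did not pass (-0.08 ± 0.036, adjusted p = 0.0766). LPS changed it by 0.14 ± 0.037 in MOPS and by -0.09 ± 0.037 in HEPES, and the difference between these passed (0.23 ± 0.052, adjusted p = 6.94e-04). On library totals the MOPS value was -0.37, and the HEPES call was lost with RLE size factors, in DESeq2 and on leaving out any of 7 libraries. Nab2 overlaps Stat6 on the opposite strand and held 20.4% as many counts, and without a stated strand setting reads in the overlap cannot be told apart. Nab2 was at 0.23 ± 0.082 for MOPS over HEPES under LPS and 0.19 ± 0.079 for LPS in MOPS.

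**Figure D3:**
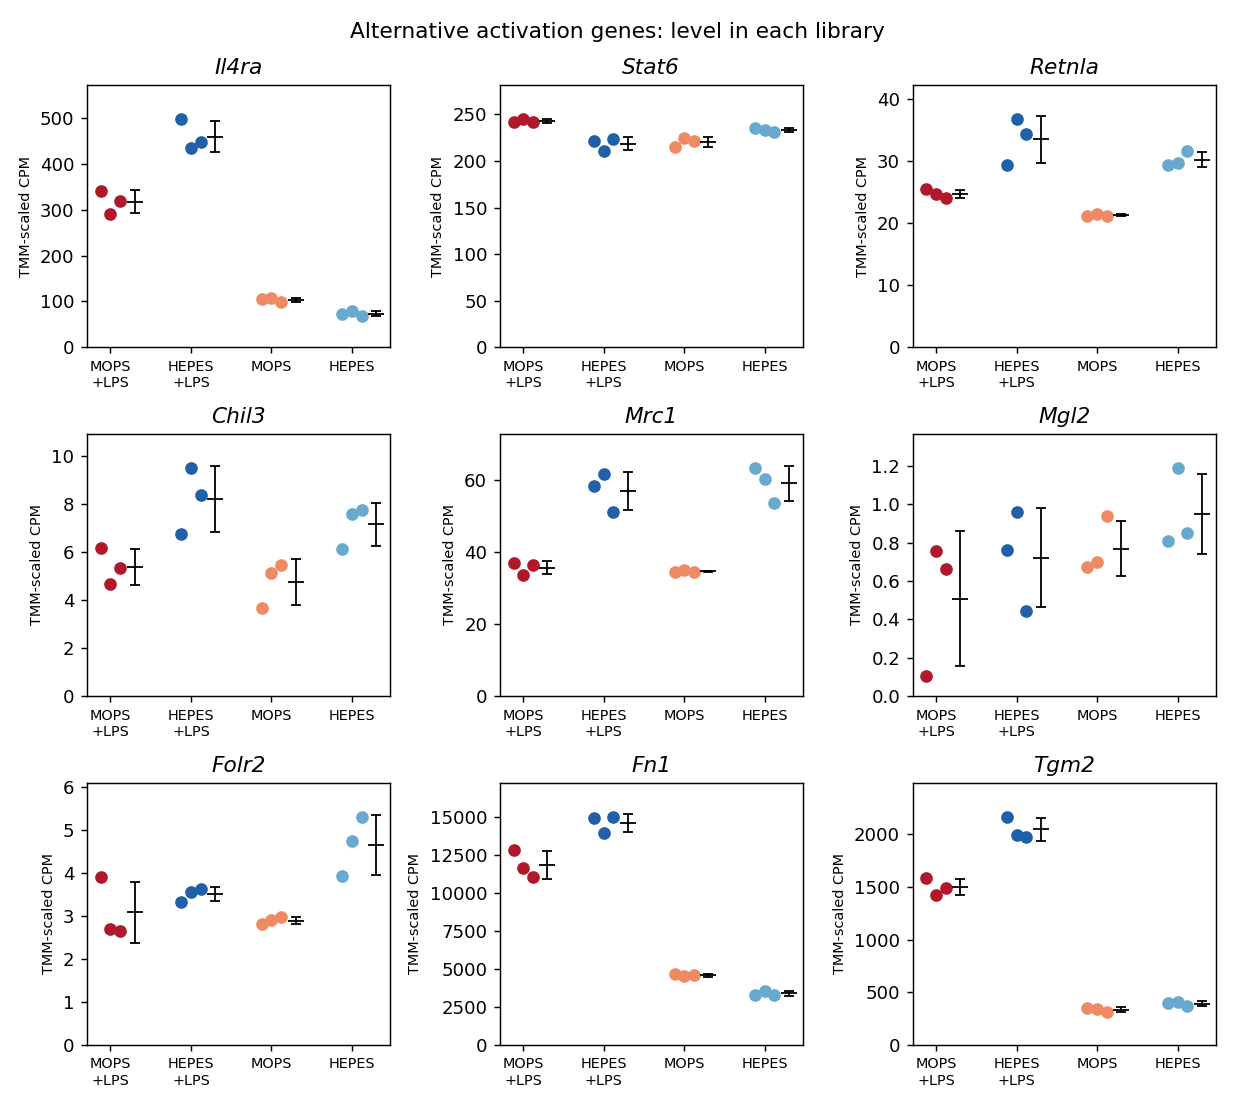
Level of each gene (TMM-scaled CPM, axes from 0) in each library of MOPS with LPS, HEPES with LPS, MOPS and HEPES, with the mean and SD of 3 libraries beside the points. For Retnla and Mrc1 every MOPS library lies below every HEPES library with the same LPS treatment, at 21.1 to 25.4 and 33.5 to 36.9 CPM in the MOPS groups.

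Retnla encodes RELM-alpha, a small secreted protein of type 2 inflammation, and its promoter is the one with the paired STAT6-type and C/EBP-type matches shown above. Its level was 25.4, 24.6 and 24.0 CPM in LPS-treated MOPS cultures, 29.3, 36.7 and 34.3 CPM in LPS-treated HEPES cultures, 21.1, 21.4 and 21.1 CPM in MOPS, and 29.3, 29.6 and 31.6 CPM in HEPES. The MOPS libraries lay below the HEPES libraries both at rest and under LPS, with no overlap. Retnla in MOPS was 0.703 times its HEPES level at rest (-0.51 ± 0.067, edgeR adjusted p = 1.80e-07) and 0.738 times under LPS (-0.44 ± 0.071, adjusted p = 3.72e-06). Since the RNA is from bulk cultures, fewer cells that express a gene and less RNA per cell cannot be told apart. LPS changed Retnla by 0.22 ± 0.071 in MOPS (adjusted p = 0.00733) and by 0.15 ± 0.067 in HEPES (adjusted p = 0.0410), values that became -0.29 and -0.43 on library totals. The HEPES call was also lost with no low-count filter and without HEPES replicate 4 or 5 or HEPES with LPS replicate 11. The LPS changes in the media did not differ past the threshold (interaction 0.07 ± 0.097, adjusted p = 0.614). Its relatives Retnlb and Retnlg had 0 counts in every library. The longest identical run with the Retnla transcript is 49 bases for Retnlg and 15 bases for Retnlb.

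Chil3 encodes Ym1, a secreted chitinase-like protein without enzyme activity. It was counted at 6.17, 4.68 and 5.35 CPM in LPS-treated MOPS cultures, 6.75, 9.52 and 8.40 CPM in LPS-treated HEPES cultures, 3.68, 5.13 and 5.46 CPM in MOPS, and 6.14, 7.58 and 7.78 CPM in HEPES. The MOPS libraries were again below the HEPES libraries in both states, by a narrow margin. The changes of medium were -0.59 ± 0.15 at rest (edgeR adjusted p = 0.00126) and -0.61 ± 0.15 under LPS (adjusted p = 0.00134). LPS did not change it past the threshold in MOPS (0.18 ± 0.16, adjusted p = 0.326) or in HEPES (0.20 ± 0.14, adjusted p = 0.200). Chil4, a close copy, had 0 counts throughout. Because 16.9% of the runs of 50 bases in Chil3 transcripts also occur in Chil4, reads from those stretches could not be assigned to one of them by sequence.

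Mrc1 encodes the mannose receptor CD206, an endocytic lectin and the surface marker most often used for alternatively activated macrophages. Its level was 36.9, 33.5 and 36.5 CPM in LPS-treated MOPS cultures, 58.3, 61.6 and 51.1 CPM in LPS-treated HEPES cultures, 34.6, 34.9 and 34.6 CPM in MOPS, and 63.4, 60.2 and 53.7 CPM in HEPES. The groups separate by medium alone: both MOPS groups lie within 33.5 to 36.9 CPM and both HEPES groups at 51.1 CPM or more. Mrc1 in MOPS was 0.586 times its HEPES level at rest (-0.77 ± 0.062, edgeR adjusted p = 2.04e-11), a change that 14.3% of tested genes exceeded in size. Under LPS it was 0.624 times (-0.68 ± 0.066, adjusted p = 7.35e-10). Its LPS changes did not pass (0.04 ± 0.067 in MOPS and -0.05 ± 0.061 in HEPES, adjusted p = 0.632 and 0.442), although on library totals they were -0.48 and -0.64 and both were called. The genes most like it over the 12 libraries were Agmo (r = 0.987) and Cadm1 (r = 0.985). Those most like Retnla were Lgals3 and Cdk6 (r = 0.972 for each).

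Mgl2 encodes the galactose-type lectin CD301b. It had only 2, 16 and 12 counts in LPS-treated MOPS cultures, 14, 18 and 8 in LPS-treated HEPES cultures, 17, 21 and 23 in MOPS, and 24, 34 and 23 in HEPES. In CPM the libraries overlapped between the groups of each comparison, and no comparison passed the test with the main settings. Among the alternative runs the lowest adjusted p (edgeR or DESeq2) was 0.0203 for LPS in MOPS and 0.0218 for LPS in HEPES. MOPS with LPS, at 0.757 CPM at most, and HEPES, at 0.810 CPM or more, are not compared directly and did not overlap. The changes of medium were -0.31 ± 0.36 at rest and -0.50 ± 0.46 under LPS, so a change of the size seen for Mrc1 was not detectable at this depth. Clec10a, which encodes the related lectin CD301a, had far more counts and was higher in MOPS: 21.6, 22.4 and 23.2 CPM in LPS-treated MOPS cultures, 7.08, 5.91 and 4.28 CPM in LPS-treated HEPES cultures, 23.1, 23.3 and 19.8 CPM in MOPS, and 7.26, 7.41 and 8.44 CPM in HEPES. Its change of medium was 1.52 ± 0.10 at rest (edgeR adjusted p = 1.64e-13) and 1.96 ± 0.12 under LPS (adjusted p = 8.54e-15). Of the runs of 50 bases in Mgl2 transcripts 12.2% also occur in Clec10a, with 183 bases as the longest identical stretch, so the split of reads between the pair is uncertain.

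Folr2 encodes folate receptor beta, a marker of tissue-resident macrophages. It stood at 3.91, 2.70 and 2.65 CPM in LPS-treated MOPS cultures, 3.32, 3.57 and 3.62 CPM in LPS-treated HEPES cultures, 2.81, 2.90 and 2.97 CPM in MOPS, and 3.92, 4.75 and 5.31 CPM in HEPES. HEPES without LPS was the highest group and did not overlap with MOPS, whereas the LPS groups overlapped. At rest Folr2 was lower in MOPS (-0.68 ± 0.16, edgeR adjusted p = 6.33e-04), and under LPS it did not pass (-0.18 ± 0.18, adjusted p = 0.417). The LPS fall in HEPES (-0.41 ± 0.16, adjusted p = 0.0254) was lost in DESeq2 and without HEPES replicate 5 or 6 or any HEPES library with LPS. The interaction was not called (0.50 ± 0.24, adjusted p = 0.103). The predicted gene Gm10602 overlaps Folr2 on the opposite strand with 26.0% as many counts, and changed by -0.79 ± 0.30 for MOPS over HEPES at rest and -2.45 ± 0.40 for LPS in HEPES.

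Fn1 encodes fibronectin, the matrix glycoprotein that integrins bind. Its level was 12841, 11635 and 11072 CPM in LPS-treated MOPS cultures, 14945, 13954 and 15038 CPM in LPS-treated HEPES cultures, 4698, 4512 and 4579 CPM in MOPS, and 3314, 3558 and 3301 CPM in HEPES. Like Il4ra, every MOPS library was above HEPES at rest and below it under LPS. The change of medium was 0.44 ± 0.045 at rest (edgeR adjusted p = 2.56e-09) and -0.31 ± 0.045 under LPS (adjusted p = 1.17e-06). LPS raised Fn1 2.58-fold in MOPS (1.37 ± 0.045) and 4.32-fold in HEPES (2.11 ± 0.046), and the LPS change was smaller in MOPS (interaction -0.74 ± 0.063, adjusted p = 2.12e-10). Fn1 ranked 216 of 14506 genes by the p of that interaction, while 17.3% of tested genes exceeded it in size. Over the 12 libraries Fn1 and Il4ra correlated at r = 0.997, and the genes outside the 9 most like Fn1 were Rai14 and Mob3b (r = 0.998 for each).

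Tgm2 encodes tissue transglutaminase, which crosslinks matrix proteins, fibronectin among them, and is a marker of interleukin-4 treatment in mouse and human macrophages. Its level was 1580, 1427 and 1492 CPM in LPS-treated MOPS cultures, 2166, 1995 and 1975 CPM in LPS-treated HEPES cultures, 351, 339 and 310 CPM in MOPS, and 400, 409 and 367 CPM in HEPES. MOPS was below HEPES in both states with no overlap, unlike Fn1. The change of medium was -0.23 ± 0.051 at rest (edgeR adjusted p = 5.55e-04) and -0.45 ± 0.050 under LPS (adjusted p = 8.42e-08). LPS raised it 4.50-fold in MOPS (2.17 ± 0.053) and 5.22-fold in HEPES (2.38 ± 0.053). The interaction of -0.21 ± 0.071 (adjusted p = 0.0213) was lost on library totals (adjusted p = 0.0838) and on leaving out MOPS replicate 1 or 2, HEPES replicate 6 or MOPS with LPS replicate 9. The genes most like it were Socs3 and Slfn8 (r = 0.999 for each).

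Of the other ligand and receptor genes, Il2rg was lower in MOPS in both states. Of 4 tested genes of this list, Il4ra included, 1 was higher and 3 lower in MOPS at rest, and 0 were higher and 2 lower under LPS. Over all tested genes the shares were 24.3% higher and 25.4% lower at rest, and 26.9% each way under LPS. Il2rg, the common gamma chain that pairs with Il4ra, averaged 95.9 CPM in MOPS with LPS, 148 CPM in HEPES with LPS, 42.3 CPM in MOPS and 52.9 CPM in HEPES. It was lower in MOPS at rest (-0.32 ± 0.053) and under LPS (-0.62 ± 0.050), and LPS raised it by 1.18 ± 0.053 in MOPS and 1.48 ± 0.051 in HEPES. Il13ra1, the partner chain for interleukin-13, averaged 34.3, 35.6, 25.9 and 29.4 CPM in the same order of groups. Il4, the ligand itself, had 28 to 32 counts per library in MOPS and 20 to 34 in HEPES under LPS, against 132 to 170 and 218 to 278 in untreated MOPS and HEPES cultures. It fell with LPS by 1.91 in MOPS and by 2.44 in HEPES on the log2 scale. Il13 and Il13ra2 had too few counts to test.

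Signalling kinases, adaptors and inhibitors included genes with large LPS changes, such as Cish and Jak2. Of 13 tested, 8 rose and 3 fell with LPS in MOPS, and 8 rose and 4 fell in HEPES, while MOPS over HEPES gave 5 higher and 4 lower at rest and 4 higher and 6 lower under LPS. Over all tested genes, 34.1% rose and 34.9% fell with LPS in MOPS, and 35.6% rose and 41.2% fell in HEPES. Between media the shares were 24.3% higher and 25.4% lower at rest, and 26.9% each way under LPS. Cish, an inhibitor that STAT proteins induce, had a mean of 112 CPM in MOPS and 351 CPM in HEPES under LPS, against 1.01 and 1.83 CPM in untreated MOPS and HEPES cultures. Jak2, which encodes a receptor-bound Janus kinase, averaged 753 and 1437 CPM with LPS in MOPS and HEPES, against 78.1 and 72.0 CPM without. The adaptor gene Irs2 was lower in MOPS at rest (-0.28 ± 0.049) and under LPS (-1.09 ± 0.047). The phosphatase gene Ptpn6 was lower in MOPS at rest (-0.49 ± 0.040) and higher under LPS (0.70 ± 0.043), with an interaction of 1.19 ± 0.058, opposite in sign to that of Il4ra. Socs2, an inhibitor of cytokine signalling, was higher in MOPS at rest (0.94 ± 0.14) and lower under LPS (-0.59 ± 0.082), and LPS raised it by 2.54 ± 0.10 in MOPS and 4.07 ± 0.11 in HEPES.

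**Figure D4:**
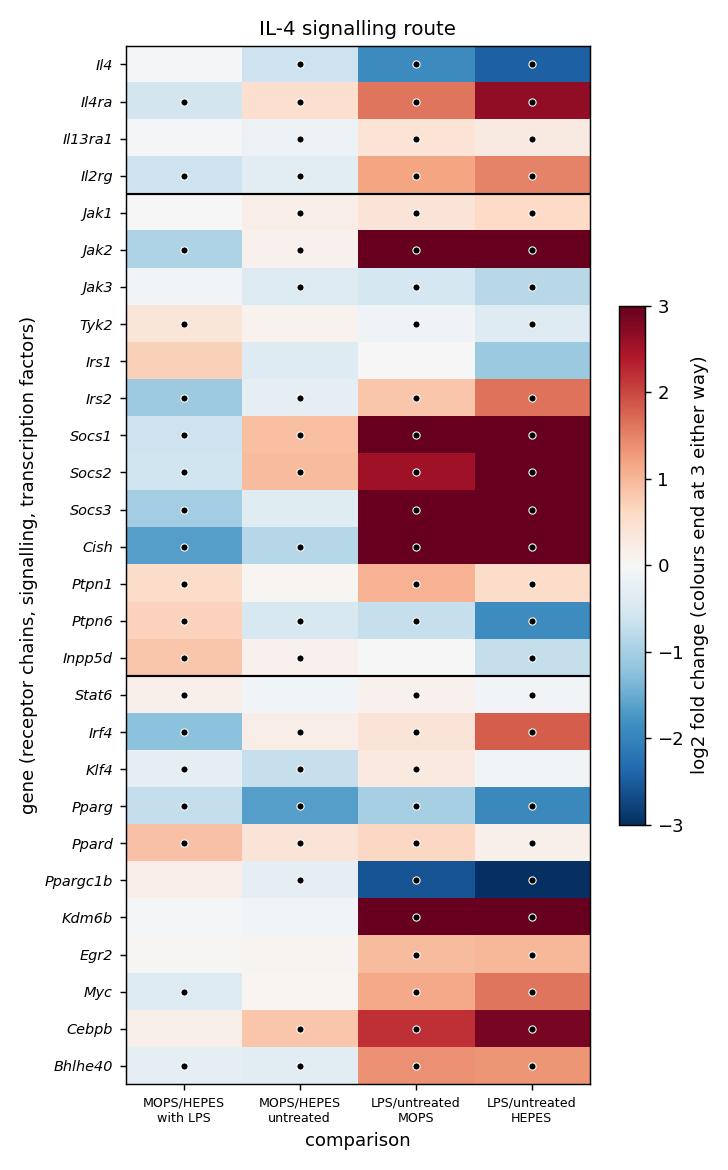
Log2 fold changes of receptor and ligand genes, signalling genes and transcription factors of the interleukin-4 route in 4 comparisons; colours end at 3 in either direction and dots mark an adjusted p under 0.05. In the columns for LPS, Cish, Jak2, Socs3 and Kdm6b are high in both media, and Il4 is among the genes that are low.

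Of 12 transcription factors and chromatin regulators, 3 were higher and 4 lower in MOPS at rest, 3 higher and 5 lower under LPS. The shares over all tested genes were 24.3% higher and 25.4% lower at rest, and 26.9% each way under LPS. Pparg, the nuclear receptor that sustains alternative activation in mouse macrophages, averaged 2.98 CPM in MOPS with LPS, 4.92 CPM in HEPES with LPS, 6.02 CPM in MOPS and 18.9 CPM in HEPES. It was lower in MOPS at rest (-1.65 ± 0.097) and under LPS (-0.72 ± 0.14). Klf4, a partner of STAT6, was lower in MOPS in both states (-0.68 ± 0.066 and -0.30 ± 0.070). Irf4, which drives part of the interleukin-4 program, was higher in MOPS at rest (0.21 ± 0.079, with overlapping libraries) and lower under LPS (-1.22 ± 0.073). Ppard, a nuclear receptor related to Pparg, was higher in MOPS in both states (0.39 ± 0.051 and 0.88 ± 0.052), and Bhlhe40, a basic helix-loop-helix factor, was lower in both (-0.34 ± 0.043 and -0.30 ± 0.042). Kdm6b, a histone demethylase, rose with LPS by 4.81 ± 0.062 in MOPS and 4.79 ± 0.062 in HEPES and did not pass between the media.

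The list of secreted proteins and enzymes, which holds Retnla, Chil3, Fn1 and Tgm2, had 5 of 17 tested genes higher and 9 lower in MOPS at rest (median -0.23), and 2 higher and 11 lower under LPS (median -0.41). Among all tested genes, 24.3% were higher and 25.4% lower at rest, and 26.9% each way under LPS. Fabp4, a fatty acid binding protein, was lower at rest (-0.75 ± 0.042) and under LPS (-0.60 ± 0.042), while Ear2, a ribonuclease, was higher (2.49 ± 0.22 and 2.97 ± 0.27). Igf1, a growth factor of repair macrophages, was lower in MOPS at rest (-0.60 ± 0.044) and did not pass under LPS (-0.05 ± 0.044). Slc7a2, an arginine transporter, rose with LPS by 4.51 ± 0.050 in MOPS and 5.18 ± 0.052 in HEPES. Arg1, the arginase that competes for the same amino acid, is named after its values were seen, and had a mean of 452 CPM in MOPS and 32.2 CPM in HEPES under LPS, against 509 and 37.7 CPM in untreated MOPS and HEPES cultures.

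Uptake receptors, the list that holds Mrc1, Mgl2 and Folr2, split in both directions: 6 of 16 were higher and 9 lower in MOPS at rest, and 8 higher and 5 lower under LPS. Msr1, a scavenger receptor, was lower in MOPS at rest (-0.47 ± 0.037) and under LPS (-0.70 ± 0.037), as Mrc1 was. Axl, a receptor for apoptotic cells, was higher in both (1.01 ± 0.044 and 0.36 ± 0.041). So were Clec7a, the beta-glucan receptor (0.29 ± 0.039 and 0.59 ± 0.039), and Mertk, a receptor for apoptotic cells (0.14 ± 0.044 and 1.03 ± 0.050). For Mertk at rest, the lowest MOPS library and the highest HEPES library were both at 215 CPM. Stab1, a scavenger receptor, was lower at rest (-0.78 ± 0.059) and higher under LPS (0.40 ± 0.058). Among 6 tested integrin subunits that bind fibronectin, 2 were higher and 3 lower in MOPS in each state. Itgav averaged 523 CPM in MOPS with LPS, 574 CPM in HEPES with LPS, 171 CPM in MOPS and 128 CPM in HEPES, the same order of groups as Fn1, and Itga5 rose with LPS by 3.65 ± 0.044 in MOPS and 3.82 ± 0.044 in HEPES. Itgb3 was lower in MOPS in both states (-1.88 ± 0.12 at rest and -1.31 ± 0.17 under LPS), and Itgb5 was higher in both (0.15 ± 0.056, with overlapping libraries, and 0.66 ± 0.059). Itga4 was lower at rest (-0.58 ± 0.047) and higher under LPS (0.39 ± 0.048). Itgb1 was lower at rest (-0.17 ± 0.034) and did not pass under LPS (0.03 ± 0.034). Over the 59 tested genes of these lists that are not among the 9, 20 were higher and 27 lower in MOPS at rest, and 18 higher and 26 lower under LPS. Shares over all tested genes were 24.3% higher and 25.4% lower at rest, and 26.9% each way under LPS. They also stand beside the counts of uptake receptors and integrin subunits.

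In the mm10 coordinates of the table, which GENCODE vM21 gives identically for all 9 genes, Retnla (ENSMUSG00000061100) lies on chromosome 16 from 48842551 to 48844461, Mrc1 (ENSMUSG00000026712) on chromosome 2 from 14229392 to 14332057, Il4ra (ENSMUSG00000030748) on chromosome 7 from 125552120 to 125579474 and Fn1 (ENSMUSG00000026193) on chromosome 1 from 71585520 to 71653200. Chil3 (ENSMUSG00000040809) is on chromosome 3 from 106147554 to 106167564 and Stat6 (ENSMUSG00000002147) on chromosome 10 from 127642986 to 127660957. Tgm2 (ENSMUSG00000037820) is on chromosome 2 from 158116402 to 158146436, Folr2 (ENSMUSG00000032725) on chromosome 7 from 101839988 to 101857194 and Mgl2 (ENSMUSG00000040950) on chromosome 11 from 70130329 to 70137550. All 9 are protein coding.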

How the data were processed

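RNA-seq of 12 libraries was deposited as 1 table. Its raw counts per gene and library are whole numbers, per the file headers, and the submitters' processing notes name CASAVA 1.8, HISAT2 2.0.5, featureCounts 1.5.0-p3 and mm10 without their roles. No source used here gives the strand setting or annotation release. The authors' FPKM and comparison columns were not used, and the deposited gene length column, another kind of value, served to scale levels between genes. The count model was edgeR 4.0.16 under R 4.3.3: filterByExpr, TMM scaling and a robust quasi-likelihood fit of the 4 group means across all genes, with 8 residual degrees of freedom and Benjamini-Hochberg adjusted p-values over 14506 genes. Standard errors are approximate: each is the absolute log2 change over the root of its F statistic. On simulated counts with changes in untreated MOPS only, the procedure recovered 69.4% of genes changed 1.5-fold and 98.0% of those changed 4-fold. It made 10 false calls among 14058 genes. Only 50 genes were changed at each fold, whereas 49.7% of tested genes were called at rest in the data. Simulated counts followed the edgeR model with the spread estimated from these data, so recovery in the data may differ. The simulation held no LPS change, so it did not test the composition scaling of the LPS comparisons. Within groups, libraries correlated at 0.991 to 0.994 in log2 CPM and differed beyond counting error (2.66 to 6.54 for chi-square over its degrees of freedom). Alternatives were RLE factors, library totals, DESeq2 1.42.0, no filter, fits of the compared groups only, no robust option and leaving out each library.

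The 9 genes and the 6 lists were chosen with earlier results of these data known. Besides the 9, genes could be named if among the 3 smallest p-values of their list in a comparison, as close copies, or as the 2 most alike by Pearson r of log2(CPM + 0.5), among genes with at least 10 CPM in their highest group. Of the transcription factor list, 1 gene is counted but not reported here by itself.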

Additional observations from a re-analysis of the deposited data

Results flagged for a closer look

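For 4 of the 9 genes the LPS change differed between the media by the test of that difference. Of all 14506 tested genes, 39.4% were called for it, so the count of 4 is not particular to these genes. With HEPES subtracted from MOPS, the LPS changes differed by -1.04 for Il4ra, -0.74 for Fn1, 0.23 for Stat6 and -0.21 for Tgm2 on the log2 scale. Il4ra, Fn1 and Stat6 were called in every alternative run for this difference, and the call for Tgm2 was lost in some alternatives. No other gene of the 9 was called for this difference, and groups of 3 libraries were not searched for single outlying libraries.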

How the results depend on the processing

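No paired analysis was possible because the labels number the libraries 1 to 12 and no number is shared between groups. Both comparisons of media called 7 of the 9 genes under RLE factors, library totals, DESeq2, no filter, fits of the compared groups only and no robust option, and leaving out 1 library gave 7 at rest and 6 to 7 under LPS. LPS in HEPES gave 6 calls, 4 to 9 under those settings and 3 to 6 with 1 library left out (3 without HEPES replicate 5 or HEPES with LPS replicate 11). LPS in MOPS gave 5 calls, but 8 on library totals (3 higher, 5 lower), which omit the composition factor. Of all 14506 tested genes, 49.7% were called between media at rest and 53.8% under LPS. With LPS, 69.0% of tested genes were called in MOPS and 76.9% in HEPES. On library totals 11590 genes were called with LPS in MOPS and 12168 in HEPES. On those totals the LPS changes in MOPS turned to -0.29 for Retnla, -0.34 for Chil3, -0.37 for Stat6, -0.48 for Mrc1 and -0.42 for Folr2, those in HEPES to -0.43 for Retnla and -0.38 for Chil3, and the interaction of Chil3 to 0.05. With 1 library left out, values that were not called changed sign: Folr2 with LPS in MOPS (-0.12 to 0.19), Mrc1 with LPS in HEPES (-0.12 to 0.07) and the interactions of Retnla (-0.07 to 0.10), Chil3 (-0.19 to 0.08), Mrc1 (-0.03 to 0.16) and Mgl2 (-0.68 to 0.23); the cause was not tested. Depth limits Mgl2, with 2 to 34 counts per library.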
